A study of Sus scrofa with 15 samples.

Results

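The splicing and RNA-binding protein genes described here are the pig genes whose array annotation gives a single symbol beginning with HNRNP, SRSF, SFRS, SF3A, SF3B, SNRP, PRPF, LSM with a digit, U2AF, RBM with a digit, or KHDRBS. The rule uses symbols alone, with no measured value, though it was set with earlier results of these data known. Of 6765 genes with a single symbol, 83 were members, measured by 133 probe sets. Where a gene had several probe sets, which was so for 31 members, the probe set with the highest mean over all arrays stood for it. The members were split by textbook role into 33 genes of the core spliceosome, 36 splicing regulators and 14 other RBM and LSM genes. The last class was not free of genes tied to splicing, since it held RBM48, of minor-intron splicing, and RBM8A, of the exon junction complex. A probe set annotated to both RBM14 and CTSF carried more than a single symbol and was left out.

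Transcript levels were measured in total RNA of pig follicular granulosa cells, the hormone-producing cells around the oocyte, on Affymetrix porcine genome arrays. The groups were granulosa cells on day 0, cells after 1, 2 and 4 days in culture, which the labels call dedifferentiating, and cells of day 7, called dedifferentiated or DFOG cells and grown until partly confluent. There were 15 arrays, 3 for each day, and so small a number limits the precision of every value. The replicates are called biological, but whether they were separate animals or separate cultures is not stated, so a p value here speaks of the spread between arrays only, which may be technical. No breed, age, medium or treatment is given in the sources used here, and the labels name no agent added to any group.

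The spliceosome removes introns from pre-mRNA. Its core is built of small nuclear RNAs wrapped in rings of Sm or LSM proteins, to which the SF3A and SF3B complexes, the U2AF factors and the PRPF factors add. Regulators such as SR proteins, which mostly promote use of an exon, and hnRNP proteins, which often repress it, set which splice sites are used. The arrays measured levels of these genes' transcripts near the 3′ end, and not splicing itself.

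Values are RMA values on the log2 scale, and changes are differences of day means on that scale, later minus earlier day, with their standard error (SE) from limma. A member was said to rise or fall when its Benjamini-Hochberg adjusted p over all 23999 probe sets was under 0.05. The members were bright: the median of their mean levels was 9.91, against 8.12 for all genes with a single symbol, and 75 of 83 had a mean of at least 8. HNRNPU and U2AF2 had means under 6, and whether these probe sets detect their transcripts well was not tested. In bulk RNA, fewer cells of a type and less RNA per cell cannot be told apart.

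Array measures and cell markers moved with the days. The difference between the 3′ and 5′ control probe sets of actin, a sign of RNA length, lay between 0.97 and 1.68 in day 0 cells. In culture it lay between 0.18 and 1.01 (day 1), 0.02 and 0.68 (day 2), 0.07 and 2.12 (day 4) and 0.19 and 0.59 (day 7). Its part in the changes below was not tested. Replicate 1 of every day stood apart from the other replicates on the third principal component (13.1% of the variance). All 10 granulosa markers were measured, and their day 7 means lay between 4.46 and 8.21, against 5.26 to 14.26 for day 0, with CYP19A1 and FOXL2 low on day 0 at 5.26 and 5.89. The 4 leukocyte markers measured lay between 3.75 and 6.54 (day 7), against 3.77 to 4.87 (day 0), with the pan-leukocyte gene PTPRC at 3.75 and 3.77 and the monocyte gene CD14 at 6.54 and 4.87. The 4 endothelial markers lay between 3.43 and 7.14 (day 7), against 3.41 to 6.11 (day 0), with CDH5 at 3.98 and 4.02 and PECAM1 at 7.14 and 5.66 (7.30 on day 1). Of the 2 theca markers, INSL3 stood at 5.67 on day 7, against 8.03 on day 0, and CYP17A1 at 5.29, against 4.99. Of the 4 oocyte markers, GDF9 stood at 5.73 on day 7, against 7.35 on day 0, and BMP15 at 5.68, against 6.08. ZP3 stood at 5.22, against 5.72, and ZP2 at 4.03, against 4.15. The red blood cell genes HBB and ALAS2 stood at 8.45 and 5.25 on day 7, against 8.76 and 5.89 on day 0. The part of other cell types in the results was not tested.

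Most calls in the family were made on the first day of culture, and in the deposited values nearly all of them were rises. On day 1, 27 of 83 members (32.5%) rose against day 0 and 1, SRSF12, fell, where 13.6% of all probe sets were called higher and 11.4% lower. Among genes with a single symbol the shares were 19.5% and 13.7%. With the dimmest 40% of probe sets left out, 22.6% of the remaining probe sets were higher and 15.4% lower, with a median change of 0.10. In that fit 10 of 33 core genes, 11 of 35 regulators and 8 of 14 others rose, and 1 regulator fell. The median change of the members was 0.29, against 0.04 over all genes with a single symbol, and 66 of 83 members had a positive change. Most of the rises were small: 7 of 83 rose and 1 fell by at least 1 on the log2 scale, where 6.47% and 6.03% of all probe sets did. Among the 6765 genes with a single symbol, 601 rose and 468 fell by that much, a share of rises near that of the members. With arrays normalized by cyclic loess, 19 members rose and 3 fell, so that 86.4% of calls were higher against 96.4%, and the members' median change was 0.06. Under cyclic loess 11.7% of all probe sets were higher and 13.1% lower.

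**Figure D1:**
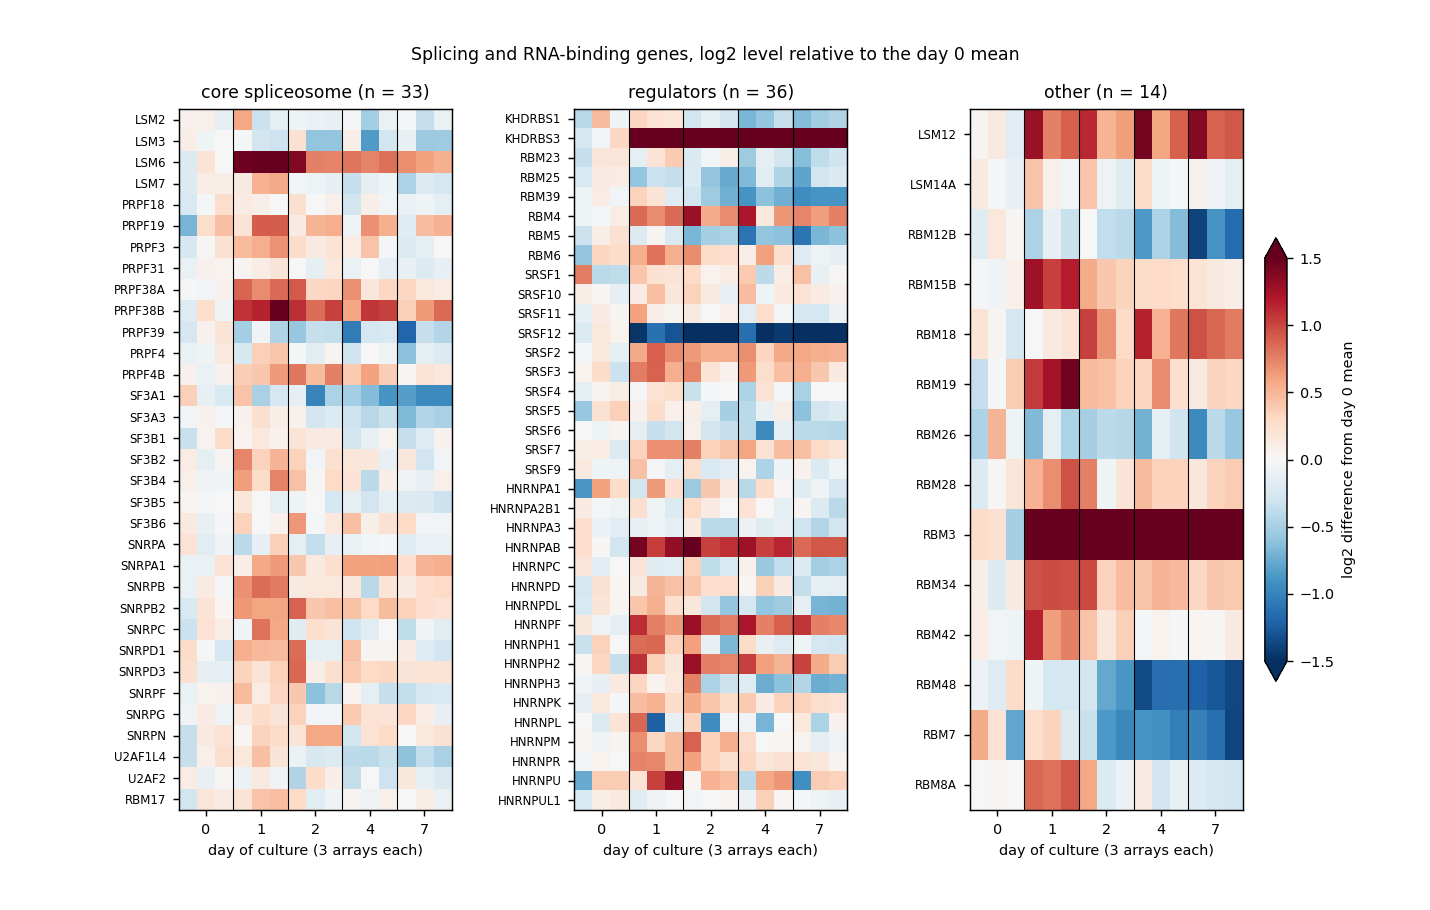
Each row is a member and each column an array, with 3 arrays a day in the order of replicates, and colour gives the log2 difference from the gene's own day 0 mean, cut at 1.5 either way. Most rows are red on day 1, while KHDRBS3 and RBM3 stay red and SRSF12 stays blue on every later day.

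The differences between the classes on day 1 were not tested. Of the core spliceosome 9 of 33 rose (27.3%), of the regulators 10 of 36 (27.8%) with 1 fall, and of the other RBM and LSM genes 8 of 14 (57.1%). The median changes were 0.29 for the core, 0.25 for the regulators and 0.78 for the others. Taken array by array against the day 0 means, the median core gene stood at 0.20, 0.34 and 0.36 on day 1 and at -0.10, 0.05 and 0.04 on day 0. The median regulator stood at 0.35, 0.29 and 0.23 on day 1 and at -0.07, 0.10 and 0.03 on day 0. The median of the other genes stood at 0.69, 0.67 and 0.82 on day 1 and at 0.02, 0.02 and -0.04 on day 0. In each class all 3 arrays of day 1 lay above all 3 of day 0, while the median gene with a single symbol stood at 0.04 to 0.05 on day 1. The core count was 5 without day 1 replicate 3 or with only the 6 arrays compared, and 14 with the replicate number as a block or with replicates 2 and 3 only, while under cyclic loess 5 regulators rose and 3 fell. The share of all probe sets called higher was 11.1% without day 1 replicate 3 and 11.8% with only the 6 arrays. It was 18.2% with the block and 17.7% with replicates 2 and 3 only. The class medians were 0.16, 0.02 and 0.63 under cyclic loess and 0.17, 0.12 and 0.69 after a second quantile normalization, for the core, the regulators and the others.

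**Figure D2:**
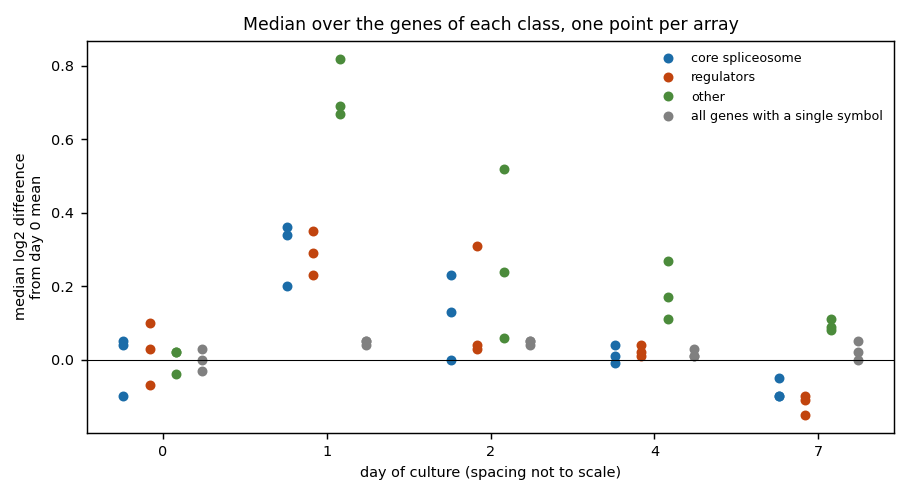
Points give, for each of the 15 arrays, the median over a class of the log2 difference from each gene's day 0 mean, with days spaced evenly. All 3 classes lie at 0.20 to 0.82 on day 1, and the core and the regulators lie at -0.15 to -0.05 on day 7, while all genes with a single symbol stay between -0.03 and 0.05.

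Day 1 was also the day of the highest mean for most members. This was so for 20 of 33 core genes, 21 of 36 regulators and 8 of 14 others, 49 of 83 in all (59.0%), against 24.1% of genes with a single symbol. Day 7 held the lowest mean of 42 of 83 members (50.6%), against 18.7% of genes with a single symbol. These are descriptions of the day means, with no test of their own. They rest on the deposited values and were not counted under another normalization. Under cyclic loess the members' median change from day 0 was 0.06 on day 1 and -0.29 on day 7. As deposited it was 0.29 and -0.08.

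Over the whole course, 35 of 83 members (42.2%) passed the moderated F test, where 35.9% of all probe sets and 46.5% of genes with a single symbol did. By class these were 11 of 33 core genes, 13 of 36 regulators and 11 of 14 others. The movement was narrow for most: the range of day means was at least 1 in 14 members (16.9%), against 31.7% of genes with a single symbol. The widest range was 1.54 among core genes, 5.99 among regulators and 2.18 among the others.

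Among the Sm and snRNP proteins, which form and decorate the rings on the small nuclear RNAs, 2 of 10 (20%) rose on day 1, a share near the 19.5% of genes with a single symbol. SNRPB encodes a protein of the Sm ring. It had 11.40, 11.55 and 11.49 on day 1, against 10.61, 10.83 and 10.68 on day 0, with no overlap, and its change was 0.77 ± 0.15 (SE; limma adjusted p = 0.00189). SNRPB2, a protein of the U2 particle, rose by 0.61 ± 0.15 (limma adjusted p = 0.00853). No Sm or snRNP gene passed the test on day 7 against day 0 in limma, where 1, SNRPA1, was higher at an unadjusted p under 0.05 (0.43, adjusted p = 0.0502). At that unadjusted p, 1902 of 6765 genes with a single symbol were higher. With the replicate number as a block SNRPA1 passed (adjusted p = 0.0301), and on day 1 the block added SNRPA1 at 0.44, SNRPC at 0.44 and SNRPD1 at 0.50 (adjusted p = 0.0221 to 0.0320). Sm proteins have close copies (SNRPB and SNRPN share most of their sequence), so signal shared between their probe sets cannot be told apart here.

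SF3A and SF3B are protein complexes of the U2 particle that bind near the branch point. On day 1, 2 of 7 (28.6%) rose, against 19.5% of genes with a single symbol. These were SF3B4, at 0.56 ± 0.18 (limma adjusted p = 0.0323), and SF3B2, at 0.53 ± 0.16 (limma adjusted p = 0.0291). The SF3A subunits took another course. SF3A1 had 9.61, 9.49 and 9.48 on day 7, against 10.80, 10.32 and 10.21 on day 0, a change of -0.91 ± 0.25 (limma adjusted p = 0.0132), which was not past the threshold without day 0 replicate 1 (-0.74, adjusted p = 0.0576). SF3A3 had 10.31, 10.53 and 10.48 on day 7, against 10.93, 11.04 and 10.94 on day 0, a change of -0.53 ± 0.12 (limma adjusted p = 0.00435). The day 7 arrays of both genes lay below all those of day 0.

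The PRPF factors, named for yeast pre-mRNA processing genes, act in the particles that join and activate the spliceosome. On day 1, 4 of 9 (44.4%) rose, against the same 19.5%. PRPF38B had the largest change of them. Its values were 6.77, 7.22 and 6.89 on day 0, 8.04, 8.11 and 8.51 on day 1, 8.07, 7.80 and 7.99 on day 2, 7.55, 8.03 and 7.98 on day 4, and 7.32, 7.60 and 7.81 on day 7. Every array in culture lay above every day 0 array, by 1.26 ± 0.19 on day 1 (limma adjusted p = 2.29e-04) and by 0.62 ± 0.19 on day 7 (limma adjusted p = 0.0225). The day 7 call was lost without day 0 replicate 1 or 3 or day 7 replicate 2 or 3 (adjusted p = 0.0625 to 0.101). PRPF38A, its relative in the complex before activation, rose by 0.81 ± 0.17 on day 1 (limma adjusted p = 0.00355), PRPF3 by 0.56 ± 0.15 and the kinase PRPF4B by 0.47 ± 0.13.

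LSM proteins 2 to 8 form the ring on U6 RNA. Of the 4 measured 1 (25%) rose on day 1, against 19.5% of genes with a single symbol, and this was LSM6. It had 7.52, 7.92 and 7.71 on day 0, 9.18, 9.30 and 9.30 on day 1, 9.11, 8.47 and 8.46 on day 2, 8.52, 8.46 and 8.55 on day 4, and 8.42, 8.32 and 8.25 on day 7. The culture arrays all lay above those of day 0. The change was 1.54 ± 0.17 on day 1 (limma adjusted p = 1.66e-05) and 0.61 ± 0.17 on day 7 (limma adjusted p = 0.0121), and it depends on the probe set, as described further on.

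Of the U2AF genes, which read the 3′ splice site, U2AF1L4 had 7.54, 7.77 and 7.65 on day 7, against 7.79, 8.22 and 8.40 on day 0. The change was -0.49 ± 0.15 (limma adjusted p = 0.0263). It missed the threshold with only the 6 arrays compared and without day 0 replicate 2 or 3 or day 7 replicate 1 or 3 (adjusted p = 0.0677 to 0.122). U2AF2, the large subunit that binds the polypyrimidine tract, had 6.11, 5.79 and 5.72 on day 7, against 6.05, 5.83 and 5.96 on day 0, and the groups overlapped.

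The widest movement of any member was that of the regulator KHDRBS3, a STAR-family RNA-binding protein that directs alternative splicing. It had 3.92, 4.14 and 4.49 on day 0, 9.71, 9.50 and 9.26 on day 1, 10.24, 10.17 and 10.11 on day 2, 10.15, 9.73 and 9.35 on day 4, and 8.65, 9.50 and 8.79 on day 7. All its culture arrays lay far above those of day 0. Its day 0 mean of 4.18 was below the lower quartile of the arrays (4.41 to 4.68), where RMA values compress differences. It rose by 5.31 ± 0.24 on day 1, a 39.7-fold change (limma adjusted p = 2.09e-08), and by 4.80 ± 0.24 on day 7 (limma adjusted p = 7.66e-09). From day 4 to day 7 its change was -0.77, which did not pass the adjusted test. Its relative KHDRBS1, also known as Sam68, had 9.41, 9.54 and 9.61 on day 7, against 9.64 to 10.53 on day 0. That change of -0.54 ± 0.18 (limma adjusted p = 0.0390) missed the threshold in 8 of the 15 fits that left out an array: without day 0 replicate 2 or 3, day 1 replicate 2 or 3, day 2 replicate 3, or any array of day 7 (adjusted p = 0.0501 to 0.173). It also missed it with only the 6 arrays compared (adjusted p = 0.117).

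The hnRNP proteins package nascent transcripts. On day 1, 5 of 17 (29.4%) rose and none fell, against 19.5% and 13.7% of genes with a single symbol. HNRNPAB, which binds both RNA and single-stranded DNA, had the largest rise of the 5. It had 10.89, 10.66 and 10.37 on day 0, 12.08, 11.68 and 11.96 on day 1, 12.14, 11.67 and 11.74 on day 2, 11.91, 11.67 and 11.78 on day 4, and 11.49, 11.57 and 11.57 on day 7. All culture arrays lay above all day 0 arrays, by 1.27 ± 0.17 on day 1 (limma adjusted p = 8.13e-05) and by 0.90 ± 0.17 on day 7 (limma adjusted p = 8.39e-04). HNRNPF, which binds runs of G, had 11.48, 11.17 and 11.13 on day 7, against 10.58, 10.36 and 10.28 on day 0, a change of 0.85 ± 0.19 (limma adjusted p = 0.00287). HNRNPR, HNRNPM and HNRNPK rose on day 1 by 0.65 ± 0.13, 0.49 ± 0.15 and 0.42 ± 0.13. HNRNPA1 differed by 0.21 ± 0.36 on day 1, not past the test. Genomes of mammals hold many near-identical copies of this gene, and whether its probe set reads them was not tested.

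Of the SR proteins 3 of 11 (27.3%) rose on day 1, against 19.5% of genes with a single symbol. SRSF2 and SRSF3 rose by 0.73 each and SRSF7 by 0.58. SRSF2, a classical exon enhancer-binding protein, had 11.91, 12.24 and 12.05 on day 1, against 11.31, 11.50 and 11.19 on day 0 (SE 0.13; limma adjusted p = 0.00114). SRSF12, described in human as an antagonist of other SR proteins, was the member that fell. It had 7.99, 8.35 and 8.24 on day 0, 6.73, 7.07 and 6.89 on day 1, 6.70, 6.62 and 6.66 on day 2, 7.06, 6.61 and 6.76 on day 4, and 6.49, 6.23 and 6.44 on day 7. Every culture array lay below every day 0 array, with changes of -1.29 ± 0.15 on day 1 (limma adjusted p = 2.90e-05) and -1.81 ± 0.15 on day 7 (limma adjusted p = 6.03e-07).

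Among the 6 RBM genes known as splicing regulators, RBM4 rose and RBM39 and RBM5 fell over the course. RBM4, which alters exon choice in muscle and other tissues, had 9.46, 9.32 and 9.46 on day 1 and 9.34, 9.24 and 9.37 on day 7, against 8.53, 8.58 and 8.72 on day 0. Its changes were 0.80 ± 0.23 on day 1 (limma adjusted p = 0.0199) and 0.70 ± 0.23 on day 7 (limma adjusted p = 0.0322). The day 1 call was lost under cyclic loess and without day 0 replicate 1 or 2 or day 1 replicate 1 or 3 (adjusted p = 0.0528 to 0.0612), and that of day 7 under cyclic loess, a second quantile normalization, and without any array of day 0 or day 7 (adjusted p = 0.0517 to 0.0871). RBM39, a U2AF-like coactivator, had 9.61, 9.65 and 9.66 on day 7, against 10.48, 10.65 and 10.50 on day 0, a change of -0.90 ± 0.15 (limma adjusted p = 4.62e-04). RBM5, which acts on splicing of apoptosis genes, had 9.83, 10.24 and 10.32 on day 7, against 10.61, 11.02 and 11.16 on day 0, a change of -0.80 ± 0.19 (limma adjusted p = 0.00520). For RBM39 and RBM5 the day 7 arrays lay below all day 0 arrays.

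**Figure D3:**
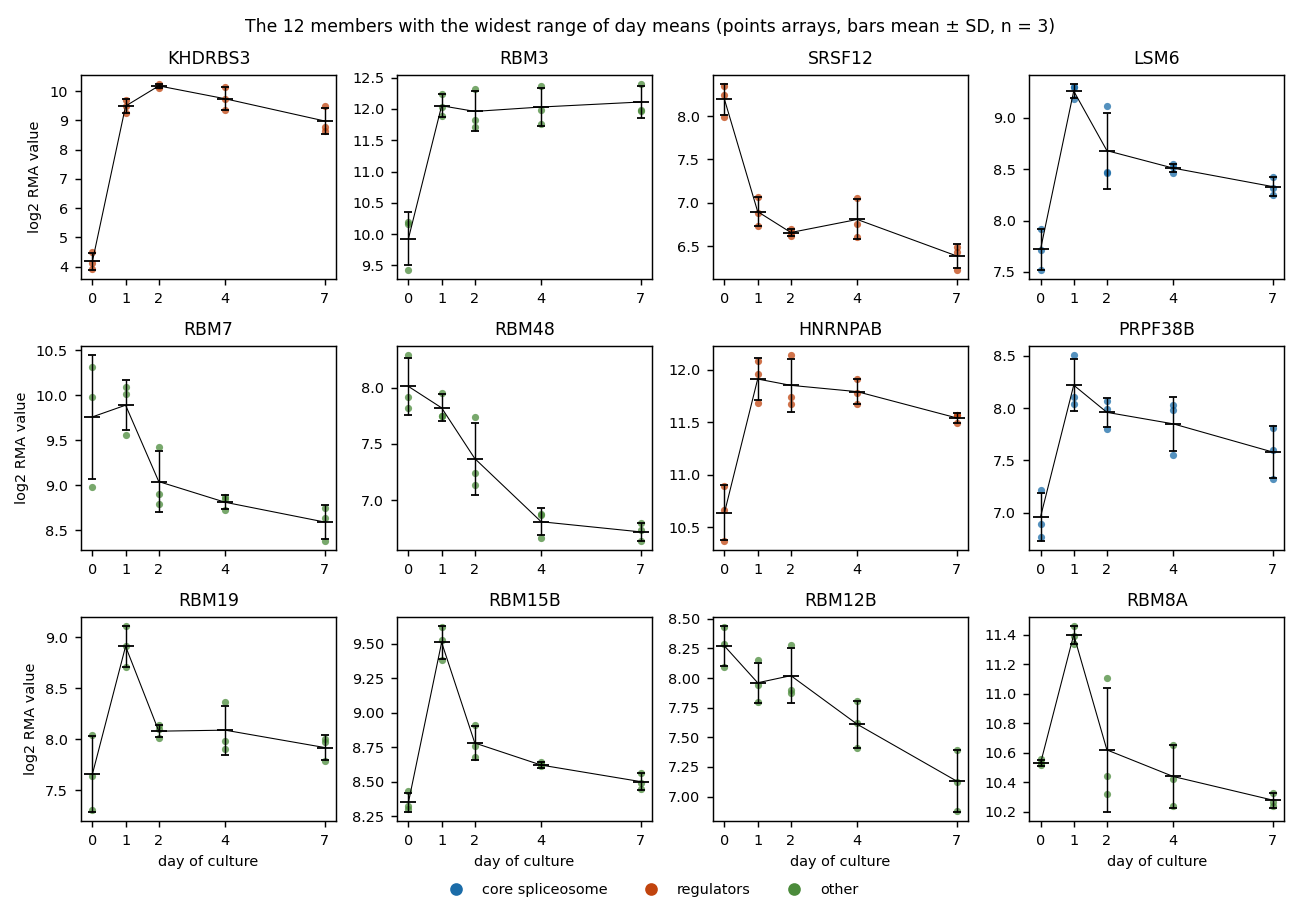
Each panel gives the log2 RMA values of a member on days 0, 1, 2, 4 and 7, with points for arrays and bars for the mean ± SD of 3 arrays; the vertical scales differ between panels. KHDRBS3, RBM3 and HNRNPAB stay above day 0, SRSF12 stays below it, RBM19, RBM15B and RBM8A peak on day 1, and RBM7, RBM48 and RBM12B are lowest on day 7.

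The other RBM and LSM genes, those placed in neither the core nor the regulators, included the member with the second widest range. RBM3, a cold-inducible RNA-binding protein, had 10.20, 10.16 and 9.43 on day 0, 12.24, 12.03 and 11.89 on day 1, 12.32, 11.83 and 11.71 on day 2, 12.36, 11.76 and 11.98 on day 4, and 12.40, 11.98 and 11.96 on day 7. It stayed at a raised level, with no overlap with day 0 on any later day. Its change was 2.12 ± 0.24 on day 1, or 4.36-fold (limma adjusted p = 2.14e-05), and 2.18 ± 0.24 on day 7 (limma adjusted p = 8.54e-06).

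A group of these genes rose on day 1 and was back near its day 0 level by day 7. RBM15B, a relative of RBM15 that works with the mRNA methylation machinery, had 8.32, 8.30 and 8.43 on day 0, 9.62, 9.38 and 9.53 on day 1, 8.91, 8.76 and 8.68 on day 2, 8.63, 8.64 and 8.61 on day 4, and 8.56, 8.49 and 8.45 on day 7. Its rise on day 1 was 1.16 ± 0.11 (limma adjusted p = 6.54e-06), and its difference on day 7 was 0.15 ± 0.11, not past the test. RBM19, needed for ribosomal RNA processing, had 7.31, 7.64 and 8.04 on day 0, 8.71, 8.91 and 9.11 on day 1, 8.14, 8.10 and 8.01 on day 2, 7.98, 8.37 and 7.91 on day 4, and 7.79, 8.0 and 7.97 on day 7. The rise on day 1 was 1.24 ± 0.18 (limma adjusted p = 2.08e-04), and day 7 overlapped day 0. RBM8A, the Y14 subunit of the exon junction complex, had 10.53, 10.56 and 10.52 on day 0, 11.39, 11.34 and 11.46 on day 1, 11.11, 10.32 and 10.44 on day 2, 10.65, 10.24 and 10.42 on day 4, and 10.33, 10.27 and 10.24 on day 7. It rose by 0.86 ± 0.18 on day 1 (limma adjusted p = 0.00250), and on day 2 replicate 1 alone stayed near the day 1 level.

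The remaining risers of this class on day 1 were LSM12 at 0.98, RBM34 at 0.96, RBM42 at 0.85 and RBM28, a nucleolar protein, at 0.72. LSM12 was also higher on day 7 by 1.06 ± 0.24 (limma adjusted p = 0.00320), with 8.68, 8.18 and 8.23 on day 7, against 7.34, 7.43 and 7.13 on day 0. RBM18 was higher on day 7 by 0.87 ± 0.20 (limma adjusted p = 0.00413), although its day 1 difference of 0.12 ± 0.20 was not past the test.

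The falls of this class came later. RBM7, which guides nuclear RNAs to the exosome, had 10.32, 9.98 and 8.98 on day 0, 10.02, 10.09 and 9.56 on day 1, 9.43, 8.90 and 8.79 on day 2, 8.87, 8.85 and 8.72 on day 4, and 8.75, 8.63 and 8.38 on day 7. Its day 0 arrays spread over more than 1 log2 unit, and all 3 still lay above those of day 7 (change -1.17 ± 0.28, limma adjusted p = 0.00589). RBM48, a factor of minor-intron splicing, had 7.92, 7.82 and 8.29 on day 0, 7.95, 7.75 and 7.75 on day 1, 7.74, 7.24 and 7.14 on day 2, 6.67, 6.87 and 6.88 on day 4, and 6.80, 6.74 and 6.64 on day 7. It fell by 1.28 on day 7 (SE 0.17; limma adjusted p = 4.97e-05). RBM12B had 8.09, 8.43 and 8.29 on day 0, 7.80, 8.15 and 7.94 on day 1, 8.28, 7.90 and 7.87 on day 2, 7.41, 7.81 and 7.62 on day 4, and 6.88, 7.39 and 7.12 on day 7. It fell by 1.14 (SE 0.18; limma adjusted p = 1.92e-04). None of these 3 genes differed past the threshold between day 1 and day 0.

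Between day 1 and day 2 the family moved down. On day 2, 6 of 83 members (7.23%) fell against day 1 and none rose, where 2.47% of all probe sets were called lower and 3.62% higher. Among genes with a single symbol 3.84% were lower and 5.50% higher. At an unadjusted limma p under 0.05, 20 members were lower and 2 higher, against 748 lower and 901 higher of 6765 genes with a single symbol. None of the 6 falls reached 1 on the log2 scale, where 1.00% of all probe sets were lower and 2.04% higher by that much. The median change was -0.18, against -0.02 over genes with a single symbol. The falls were those of RBM19 at -0.82 ± 0.18 (limma adjusted p = 0.0172), RBM8A at -0.78 ± 0.18 (0.0203), RBM15B at -0.73 ± 0.11 (0.00218), RBM39 at -0.63 ± 0.15 (0.0273), SNRPB at -0.62 ± 0.15 (0.0291) and RBM42 at -0.52 ± 0.14 (0.0418). All of these but RBM39 had risen on day 1, and both comparisons use the same day 1 arrays. SNRPB, for example, had 10.84, 10.87 and 10.87 on day 2, against 11.40, 11.55 and 11.49 on day 1.

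This count leaned on single arrays. It was 2 without day 1 replicate 2 or day 1 replicate 3, 1 without day 2 replicate 2 or day 2 replicate 3, 12 without day 2 replicate 1, and 10 with the replicate number as a block. The share of all probe sets called lower moved as well, from 2.47% in the main fit. That share was 1.13% and 1.65% without day 1 replicate 2 or 3, and 0.833% and 0.825% without day 2 replicate 2 or 3. It was 3.79% without day 2 replicate 1 and 4.8% with the block. The call of RBM15B was kept in all of the fits that left out an array, though not with the mean of its probe sets (adjusted p = 0.328). That mean also ended the calls of RBM8A (adjusted p = 0.0819), RBM42 (0.338) and RBM39 (0.843), and the fit to only the 6 arrays compared ended those of SNRPB (0.0534), RBM8A (0.130), RBM39 (0.154) and RBM42 (0.199). RBM19, RBM8A and SNRPB each missed the threshold without day 1 replicate 2 or 3 or day 2 replicate 2 or 3, and SNRPB also without day 2 replicate 1. RBM39 missed it without day 1 replicate 1 or 2 or day 2 replicate 2 or 3. RBM42 missed it without day 0 replicate 2 or 3, day 1 replicate 1 or 3, day 2 replicate 2 or 3, day 4 replicate 2 or 3, or any array of day 7.

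**Figure D4:**
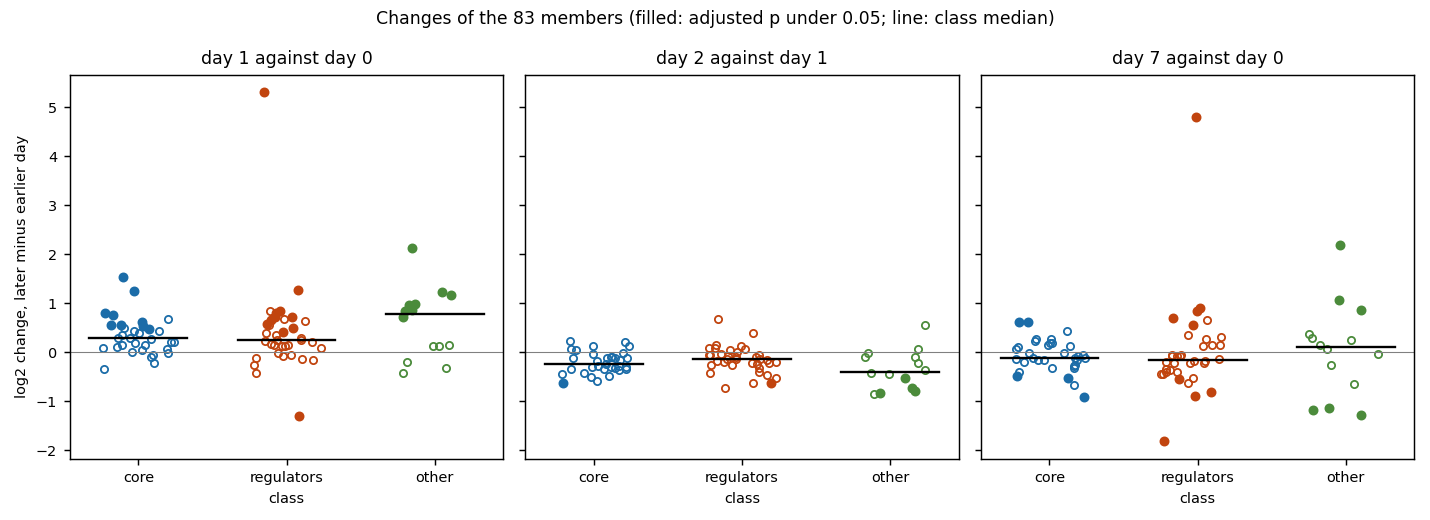
Each point is a member's log2 change, later minus earlier day, by class, filled where the limma adjusted p was under 0.05, with a bar at the class median. The medians are 0.29, 0.25 and 0.78 on day 1 against day 0, -0.23, -0.13 and -0.40 on day 2 against day 1, and -0.11, -0.15 and 0.11 on day 7 against day 0, for the core, the regulators and the others.

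Later steps held few differences. No member passed limma's test on day 4 against day 2, where 3.03% of all probe sets were higher and 1.15% lower (4.18% and 1.40% of genes with a single symbol). None passed on day 7 against day 4, where 0.0458% were higher and 0.0167% lower (0.0591% and 0.0296% of genes with a single symbol). At an unadjusted limma p under 0.05, day 4 against day 2 had 1 member higher (SNRPA1) and 4 lower (HNRNPM, RBM12B, RBM42 and RBM48), against 719 higher and 431 lower of 6765 genes with a single symbol. In the same way day 7 against day 4 had 0 higher and 5 lower, which were KHDRBS3 at -0.77, RBM12B at -0.48, SRSF12 at -0.43, HNRNPD at -0.39 and PRPF4B at -0.32. In this step 194 of the 6765 genes were higher and 159 lower at that unadjusted p. The median member changed by -0.10 and -0.12 in these steps, against -0.02 and 0.01 over genes with a single symbol. With the replicate number as a block, HNRNPM was past the test on day 4 against day 2, with a change of -0.48 (limma adjusted p = 0.0240).

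In dedifferentiated cells of day 7 against granulosa cells of day 0, rises and falls were equal in number. Of 83 members 10 rose and 10 fell (12% each), where 16.4% of all probe sets were higher and 14.9% lower, and 23.4% and 15.4% of genes with a single symbol. With the dimmest 40% of probe sets left out, 25.1% of the remaining probe sets were higher and 18.7% lower. In that fit 3 core genes, 5 regulators and 3 others rose, and 3, 4 and 4 fell. By at least 1 on the log2 scale, 3 rose (KHDRBS3, RBM3 and LSM12) and 4 fell (SRSF12, RBM48, RBM7 and RBM12B), where 9.36% and 7.28% of all probe sets did. Among the 6765 genes with a single symbol, 861 rose and 464 fell by that much. In the core, LSM6 and PRPF38B rose and SF3A1, SF3A3 and U2AF1L4 fell. In the regulators, KHDRBS3, HNRNPAB, HNRNPF, RBM4 and SRSF2 rose and SRSF12, RBM39, RBM5 and KHDRBS1 fell. In the others, RBM3, LSM12 and RBM18 rose and RBM48, RBM7 and RBM12B fell.

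The split of these day 7 calls followed the normalization: 8 rose and 24 fell after a second quantile normalization (25% higher), and 8 and 25 under cyclic loess (24.2% higher), against 50% as deposited. All probe sets shifted less, with 15.1% higher and 17.2% lower after the second quantile normalization and 15.7% and 15.8% under cyclic loess. As deposited these were 16.4% and 14.9%. With the replicate number as a block, 12 rose and 16 fell, where 20.4% and 19.6% of all probe sets did. The regulators' 4 falls were 14 under cyclic loess, 13 after the second quantile normalization, 11 with replicates 2 and 3 only, 8 with the block and 7 without day 2 replicate 1. With replicates 2 and 3 only 21.3% of all probe sets fell, and without day 2 replicate 1 16.2% did. The class medians of -0.11, -0.15 and 0.11 were -0.24, -0.36 and -0.06 under cyclic loess and -0.23, -0.34 and -0.04 after the second quantile normalization, for the core, the regulators and the others. The core's 2 rises were 1 when day 0 replicate 1, or else replicate 2 or 3 of day 7, was left out.

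The narrowest members of each class by range of day means were SNRPA (0.21) and PRPF18 (0.22) of the core, HNRNPUL1 (0.18) and SRSF9 (0.24) of the regulators, and LSM14A (0.20) and RBM26 (0.64) of the others. The range of RBM26 equals the median range of the family. SNRPA, the U1 protein that binds a stem-loop of the RNA, had 9.29, 9.58 and 10.06 on day 1, against 9.92, 9.54 and 9.63 on day 0, and overlapped. HNRNPUL1 had 9.84, 9.97 and 10.02 on day 1, against 9.79, 10.11 and 10.17 on day 0, and differed by -0.08 ± 0.14. For RBM26 a day 1 difference of -0.42 ± 0.24 was not past the test (limma adjusted p = 0.248) and was past it with the replicate number as a block (adjusted p = 0.0402). Its day 7 difference of -0.64 ± 0.24 stood likewise (limma adjusted p = 0.0555, and 0.00305 with the block).

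Many calls of the 31 members with several probe sets rested on the probe set used. Of 10 such members called on day 1, 3 had another probe set that passed the same way. So did 0 of 5 on day 2 against day 1 and 4 of 7 on day 7 against day 0. LSM6 was the single member with probe sets past the test in both directions on day 7 against day 0. Its brightest probe set rose by 0.61, a dimmer one changed by -0.72 ± 0.20 (limma adjusted p = 0.0125), with 6.42, 6.27 and 6.43 on day 7, against 7.04, 7.05 and 7.20 on day 0, and the dimmest differed by -0.20 ± 0.46. With the mean of all its probe sets, LSM6 changed by -0.10 on day 7 (limma adjusted p = 0.782). SRSF6, an SR protein with 6 probe sets, was named after its values were seen. Its brightest probe set did not pass the test on day 7 (-0.40 ± 0.18, limma adjusted p = 0.111). Probe sets 2 and 3 rose by 3.50 ± 0.22 (adjusted p = 5.74e-08) and 2.58 ± 0.22 (adjusted p = 8.58e-07), and the other 3 differed by -0.15 to 0.01. Probe set 2 had 6.59, 6.80 and 7.17 on day 0, 8.58, 8.21 and 8.49 on day 1, 9.43, 8.57 and 8.52 on day 2, 10.25, 9.98 and 9.98 on day 4, and 10.37, 10.40 and 10.28 on day 7. Whether these probe sets read different transcripts of SRSF6, or another gene, was not tested.

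**Figure D5:**
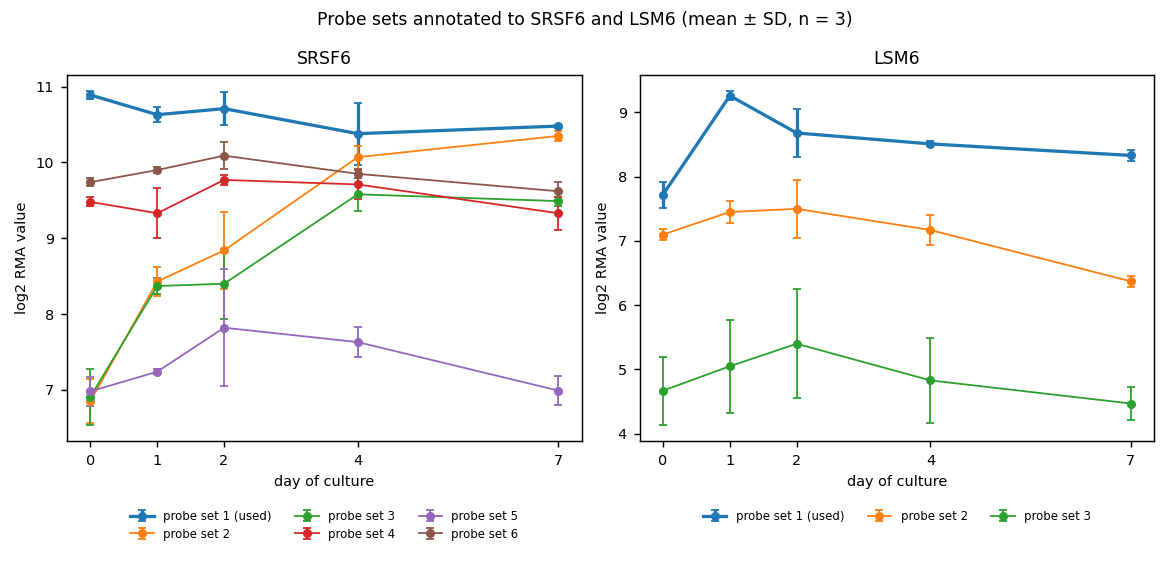
Lines give the mean ± SD of 3 arrays on each day for every probe set annotated to SRSF6 (left) and LSM6 (right), on the log2 RMA scale. Probe sets 2 and 3 of SRSF6 climb from day 0 to day 4 while the other 4 stay near their day 0 level on day 7, and LSM6 probe set 2 ends below its day 0 level while probe set 1 ends above it.

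Genes that work with the family were read from lists that hold no member, of which 75 of 132 genes were measured. On day 1 against day 0, 23 of the 75 rose and 5 fell, and on day 7 against day 0, 5 rose and 13 fell. As shares of the 75 these were 30.7% higher and 6.67% lower on day 1, against 13.6% and 11.4% of all probe sets and 19.5% and 13.7% of genes with a single symbol. On day 7 they were 6.67% higher and 17.3% lower. That compares with 16.4% and 14.9% of all probe sets and 23.4% and 15.4% of genes with a single symbol, so that the share of falls was near the background. Of 27 other spliceosome genes, 9 rose and 1 fell on day 1 (33.3% and 3.7%). The helicase gene DDX39A rose by 1.20 ± 0.18 (limma adjusted p = 2.11e-04), and SF1, the first reader of the branch point, fell by 1.71 (SE 0.35; limma adjusted p = 0.00238). Of 11 genes of snRNP assembly, 6 rose and 2 fell on day 1 (54.5% and 18.2%). WDR77 and PRMT5, partners that methylate Sm proteins, rose by 1.77 ± 0.14 (adjusted p = 9.85e-07) and 1.25 ± 0.17 (adjusted p = 1.32e-04). SMN1, DDX20, STRAP and GEMIN6 rose too, and GEMIN5 and the import adaptor SNUPN fell. Of 7 genes of the exon junction complex and its partners, 3 (42.9%) rose on day 1, namely MAGOH at 0.77, EIF4A3 at 0.64 and RNPS1 at 0.43, beside the member RBM8A. On day 7 against day 0, 1 of the 27 other spliceosome genes rose and 5 fell (3.7% and 18.5%). In that comparison 1 of the 11 snRNP assembly genes rose and 1 fell (9.09% each). None of the 7 exon junction genes rose and 1 fell (14.3%).

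Of 21 other splicing regulators, 5 rose and 1 fell on day 1 (23.8% and 4.76%), a share of rises near the 19.5% of genes with a single symbol. CELF2, a regulator of tissue-specific exons, averaged 8.90 on day 7, against 4.52 on day 0, a rise of 4.38 ± 0.31 (limma adjusted p = 1.45e-07), with day 0 at the arrays' lower quartile, so its size is uncertain as for KHDRBS3. RBFOX2, another such regulator, rose by 1.82 ± 0.14 on day 7 (adjusted p = 2.25e-07), and SRRM2, a large SR-related protein, fell by 1.52 (SE 0.22; adjusted p = 1.11e-04). Of 5 SR protein kinase genes none passed the test on day 1, and CLK4 and CLK2 fell on day 7, with changes of -1.27 ± 0.28 (limma adjusted p = 0.00295) and -0.90 ± 0.29 (limma adjusted p = 0.0303). Of 4 genes of cold-inducible and stress RNA-binding proteins, none rose on day 1 or on day 7. On day 1, 1 fell (25%), and on day 7, 3 fell (75%), against 13.7% and 15.4% of genes with a single symbol. CIRBP, the cold-inducible relative of RBM3, was among those that fell on day 7, with a change of -1.75 ± 0.48 (limma adjusted p = 0.0118), where RBM3 rose by 2.18.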

How the data were processed

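Total RNA of 15 samples was measured on Affymetrix porcine arrays, 3 for each of days 0, 1, 2, 4 and 7, per the labels. The authors made log2 expression values with RMA (background correction, quantile normalization and a summary per probe set), per the submitters' processing notes, which give no version. The lowest value was 2.29 and the highest 14.95, array medians lay between 6.40 and 6.55, and arrays of a day correlated at 0.963 to 0.996. No detection calls were used.

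Of 24123 probe sets 124 controls were left out. Of the remaining 23999, 10069 carried a single symbol, from GEO's platform annotation. All 83 members matched a current gene entry by Entrez ID, with symbols unchanged. No genome positions or sequences are given. A linear model with a mean for each day used all 15 arrays (limma 3.58.1, R 4.3.3; lmFit, eBayes), with later minus earlier day contrasts and a moderated F test, adjusted over all probe sets. On simulated data with the same spread, 26.9% of added log2 changes of 0.75 were recovered on day 1 against day 0, 82.1% of 1.5 and 98.5% of 3, and 31.3%, 91.0% and 98.5% on day 7 against day 0. The simulation left 23799 of 23999 probe sets unchanged and gave each array independent noise. The measured arrays had far more changed probe sets and related deviations, so these rates do not give the sensitivity of the comparisons here.

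The members, classes and gene lists were chosen with earlier results of these data known. Members were named by rule: in each comparison and class up to 4 largest rises and 4 largest falls that passed, every KHDRBS, U2AF and SF3A gene, the 12 widest ranges of day means, the 2 narrowest in each class, and members whose probe sets passed in opposite directions on day 7 against day 0. For each list of other genes the rule was to name up to 3 with the largest change on day 7 that passed. It was not kept for the other spliceosome, snRNP assembly and exon junction lists, whose genes were named by their day 1 changes. Of the cold-inducible and stress list only CIRBP was named. Genes named beyond these rules, such as the remaining risers of day 1, were chosen after their values were seen.

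The labels do not tie a replicate number to an animal or batch. Deviations of same-numbered arrays from their day means correlated above 0.1 for all 3 numbers in each comparison but day 1 against day 0 (0.0609 to 0.333). The correlations were 0.473 to 0.573 for day 2 against day 1 and 0.288 to 0.634 for day 4 against day 2. They were 0.416 to 0.727 for day 7 against day 4 and 0.214 to 0.384 for day 7 against day 0. The main fit does not use this shared part. The comparisons are given without a block, and with it where a count moved by over 1.5 times. Alternatives were other normalizations, eBayes with trend and robust options, a filter that left out the dimmest 40% of probe sets, a minimum log2 change of 1, the 6 arrays compared only, the mean of a gene's probe sets, replicates 2 and 3 only, the replicate block, and leaving out each array.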

Additional observations from a re-analysis of the deposited data

How the results depend on the processing

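The counts of members called under the alternatives were as follows. A minimum log2 change of 1 left 7 rises on day 1, 0 falls from day 1 to day 2, 3 rises and 4 falls by day 7, and 14 members in the time course test. Cyclic loess gave 3 falls for day 1 and 25 by day 7, and a second quantile normalization gave 24 by day 7 and 1 from day 2 to day 4. The replicate block gave 2 falls for day 1, then 10 from day 1 to day 2, 1 from day 2 to day 4, and 16 by day 7. The block called 14.9%, 4.8%, 2.66% and 19.6% of all probe sets lower in these comparisons. Its rises on day 1 (36) and day 7 (12) and its time course count (52) moved by less than 1.5 times, it ended no member's call, and it added 23 over the comparisons. Replicates 2 and 3 only gave 2 falls for day 1, 25 from day 1 to day 2, and 21 by day 7. In that fit 17.9%, 8% and 21.3% of all probe sets were lower in these comparisons. The mean of a gene's probe sets gave 2 falls for day 1 and 2 from day 1 to day 2, and the fit to the 6 arrays compared alone gave 2 from day 1 to day 2. With that mean 11.5% and 2.46% of all features tested were lower, and with the 6 arrays alone 0.879% were. Leaving out each array in turn, the rises on day 1 were 19 to 30 and the falls from day 1 to day 2 were 1 to 12. In the same fits day 7 had 8 to 12 rises and 8 to 13 falls, and the time course test passed 29 to 41 members. Across these fits 11.1% to 14.7% of all probe sets were higher on day 1, and 0.825% to 3.79% were lower from day 1 to day 2. By day 7, 13.9% to 17.4% were higher and 11.8% to 16.2% lower. The share of all probe sets that passed the time course test in these fits is not given here. The one reversal among named genes was LSM6 on day 7 against day 0, at -0.10 with the mean of its probe sets. Of 40 named gene changes that passed, 27 kept their call and direction under every alternative but the minimum change, and 29 under every omission of an array. The cause of these shifts was not tested. Arrays shifted to the same median, the filter on dim probe sets, and eBayes with trend and robust options moved no count of members by over 1.5 times. Values near the arrays' lower quartile, as for KHDRBS3 and CELF2 on day 0, limit their fold changes.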

Other observations

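HNRNPU, which encodes a nuclear scaffold protein of the hnRNP group, was lowest in replicate 1 on each of the 5 days, and was looked at after its values were seen. It had 4.34, 5.48 and 5.48 on day 0, 5.30, 6.12 and 6.43 on day 1, 5.13, 5.62 and 5.55 on day 2, 4.69, 5.68 and 5.76 on day 4, and 4.18, 5.48 and 5.45 on day 7 in replicates 1, 2 and 3. Its day 1 difference of 0.85 was not past the test (limma adjusted p = 0.182) and was past it with the replicate number as a block (adjusted p = 0.00121). PRPF19, the ubiquitin ligase of the spliceosome, differed by 0.68 on day 1 with limma adjusted p = 0.146, and 0.00194 with the block. In both genes replicate 1 departs from the others, as on the third principal component of all probe sets.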
